A study of Bos taurus with 22 samples.

Results

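PERP (ENSBTAG00000020097) and GPRC5A (ENSBTAG00000039509) are 2 of the 24616 Ensembl genes counted by RNA-Seq in subcutaneous adipose tissue of 22 steers. They were chosen by measured values of the same steers, since the study listed both as lower in efficient Angus steers and GPRC5A also as lower in efficient Kinsella Composite steers. Those contrasts are therefore described here without a test, and tests are given for contrasts between groups that did not choose the gene.

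PERP encodes a small membrane protein with several membrane-spanning segments, related to PMP22. It is a transcriptional target of p53 and of its relative p63, and is best known as a component of desmosomes, the junctions that hold epithelial cells together. GPRC5A encodes an orphan receptor of the class C G protein-coupled receptors, first known as a gene induced by retinoic acid, and is expressed mainly in epithelia such as that of the lung. Fat tissue holds adipocytes together with stromal, vascular and immune cells.

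The steers were Angus (ANG), Charolais (CHAR) or Kinsella Composite (KC, crossbred cattle that the labels give as Hereford x Angus). No experimental treatment was compared, and all were fed 1 barley-based finishing diet in a feedlot, with a pellet supplement that included Rumensin. Residual feed intake, corrected for how fat a steer was (RFIfat, in kg), sets the feed a steer ate against that predicted for it, so H-RFI steers are the inefficient ones. ANG held 4 H-RFI steers with RFIfat of 0.75 to 1.64 kg and 4 L-RFI steers at -1.13 to -0.75 kg. CHAR held 3 H-RFI steers at 0.69 to 1.1 kg and 3 L-RFI steers at -1.03 to -0.96 kg, and KC held 4 H-RFI steers at 0.54 to 2.03 kg and 4 L-RFI steers at -1.77 to -0.8 kg. The animals came from a pair of birth years, but the labels do not say which steer was born in which, and neither the labels nor the methods give an age. The labels name the cell type as adipocytes although whole ground tissue was extracted, and in such bulk samples fewer cells of a type and less RNA per cell cannot be told apart.

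The reads assigned to genes numbered 8033008 to 12426133 in a steer, with a median of 9803200. A level of 3 reads, taken as the smallest that can be told from 0, corresponds to 0.241 to 0.373 CPM, the reads of a gene scaled to the total of the library. Levels are given below as CPM on the library sizes of edgeR's TMM normalization, and error is the SD over steers. CPM is not scaled to gene length, so the levels of PERP and GPRC5A are not compared with each other. In 6 libraries (F10, F18, F28, F8, F14 and F25) ambiguous reads, those that touch more than 1 gene, were 0.814 to 1.26% of the reads on genes, against 2.45 to 6.29% in the other 16. None of the 6 was from CHAR, 3 were from ANG and 3 from KC, and results without them are given where they bear on a value.

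PERP was a gene of low counts, with 3 to 60 reads per steer. Its level had a median of 1.36 CPM over the 22 steers and ran from 0.267 CPM in F33 to 7.01 CPM in F16, a 26.3-fold range. It was above 1 CPM of the total count, the limit at which the study calls a gene expressed, in 14 of 22 steers. At these counts a single value is imprecise: the exact 95% Poisson interval of the 15 reads of F7 was 8.40 to 24.7, and it covers counting error only.

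GPRC5A was counted with 16 to 363 reads and lay above 1 CPM in 22 of 22 steers. Its median was 8.92 CPM and its level ran from 1.74 CPM in F47 to 35.2 CPM in F32, a 20.2-fold range. Both genes varied between steers of 1 group more than most genes of like abundance. The biological coefficient of variation fitted by edgeR over the 6 groups was 0.633 for PERP and 0.629 for GPRC5A. Among the 500 genes nearest in abundance the median was 0.328 for PERP, which exceeded 89% of them, and 0.163 for GPRC5A, which exceeded 99%.

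**Figure D1:**
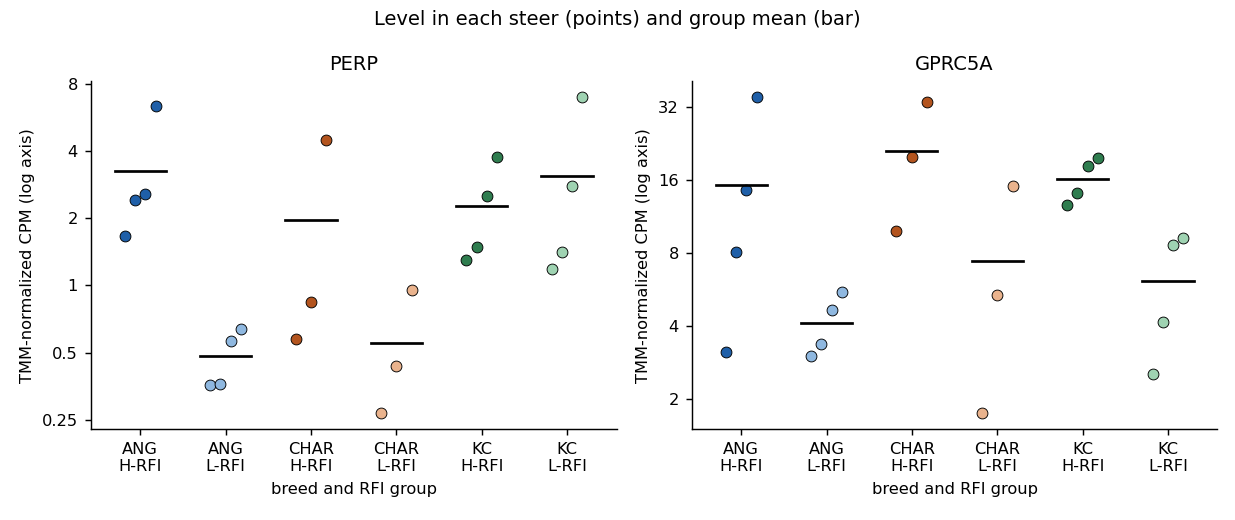
TMM-normalized CPM (log axis) of PERP (left) and GPRC5A (right) by breed and RFI group, with a point for each of the 22 steers and a bar at the group mean. All 4 ANG L-RFI steers sit below the 4 ANG H-RFI steers for PERP, and all 4 KC L-RFI steers sit below the 4 KC H-RFI steers for GPRC5A.

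In ANG, PERP was low in the L-RFI steers, which is the contrast that chose it. It was at 6.36 CPM in F20, 2.56 in F28, 2.42 in F32 and 1.67 in F21 among the H-RFI steers, a mean of 3.25 ± 2.11 CPM (SD, n = 4). In the L-RFI steers it was at 0.640 CPM in F18, 0.565 in F25, 0.361 in F24 and 0.359 in F23, a mean of 0.481 ± 0.143 CPM (SD, n = 4). The groups did not overlap, and the L-RFI values were close together while F20 stood above the other H-RFI steers. The log2 fold change (log2FC, L-RFI against H-RFI) was -2.68 with a standard error of 0.50. For comparison, 1.65% of the 13613 genes tested in ANG were lower in all 4 L-RFI steers than in all 4 H-RFI steers.

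The ANG L-RFI values of PERP rested on 7, 5, 3 and 3 reads, 18 in all, against 15 to 50 reads in each H-RFI steer and 115 in all. The ratio of the summed reads, scaled to library size, was 0.16 with a 95% interval of 0.0915 to 0.264, which covers counting error and not the spread between steers. F24 and F23 were at the level of 3 reads. PERP entered the ANG comparison through the H-RFI group alone, because it was above 1 CPM of the total count in 4 of the 4 H-RFI steers and 0 of the 4 L-RFI steers and the filter asked for 50% of the steers of a breed. It would not have been tested with any 1 of the H-RFI steers left out.

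**Figure D2:**
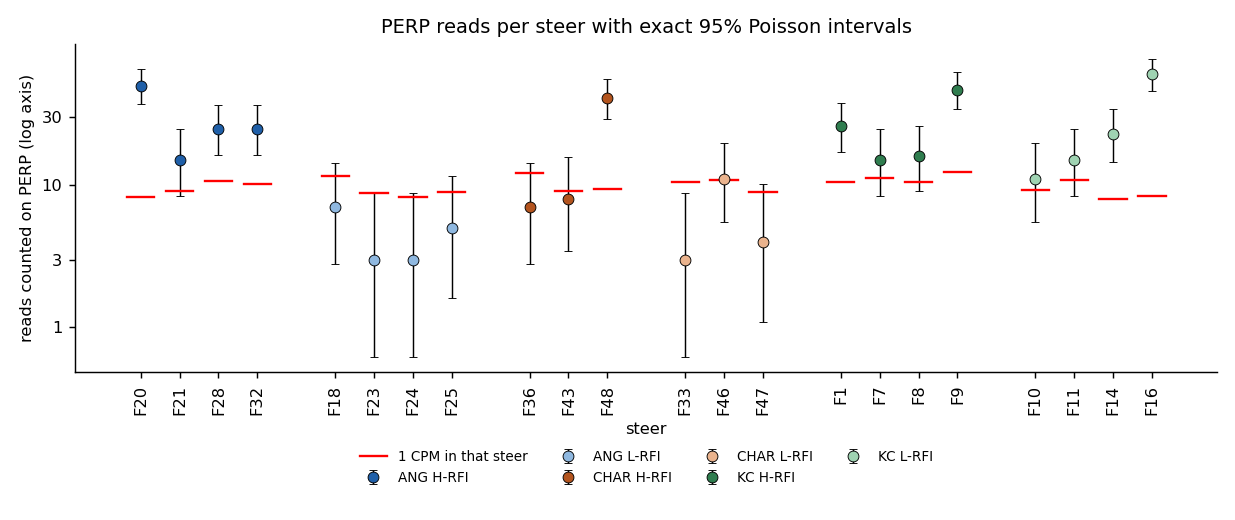
Reads counted on PERP (log axis) in each steer, grouped by breed and RFI group, with exact 95% Poisson intervals, and a red line at the number of reads that makes 1 CPM of the total count in that steer. The 4 ANG L-RFI steers held 3 to 7 reads and all 8 KC steers held 11 or more.

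GPRC5A was also lower on average in ANG L-RFI steers, again in a contrast that chose it, but its groups overlapped. The H-RFI steers F32, F20, F28 and F21 were at 35.2, 14.5, 8.08 and 3.11 CPM, a mean of 15.2 ± 14.1 CPM (SD, n = 4). The L-RFI steers F18, F25, F24 and F23 were at 5.49, 4.63, 3.37 and 2.99 CPM, a mean of 4.12 ± 1.15 CPM (SD, n = 4). The H-RFI steer F21 thus lay below 3 of the L-RFI steers, and F32 alone was more than 2-fold above any other ANG steer. The log2FC was -1.88 with a standard error of 0.61, and it was -1.03 without F32 and -2.21 without F21. By the quasi-likelihood test of edgeR, 0 of 13613 genes (0%) were called in ANG at a false discovery rate (FDR) below 0.1 and an absolute log2FC of at least 1, while 686 had an unadjusted p under 0.05. DESeq2 called 32 genes there, the likelihood ratio test of edgeR 31 and its exact test 46.

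In KC, the RFI groups overlapped for PERP, in a contrast that did not choose it. The H-RFI steers F9, F1, F8 and F7 were at 3.75, 2.52, 1.48 and 1.31 CPM, a mean of 2.26 ± 1.12 CPM (SD, n = 4). The L-RFI steers F16, F14, F11 and F10 were at 7.01, 2.80, 1.41 and 1.19 CPM, a mean of 3.102 ± 2.70 CPM (SD, n = 4). The lowest L-RFI steer, F10, lay below all H-RFI steers and the highest, F16, above all of them. The log2FC was 0.43 (95% interval -0.83 to 1.69), and it did not pass edgeR's quasi-likelihood test (FDR = 0.727) or an exact permutation test of log2 CPM (2-sided p = 0.8, where 0.0286 is the smallest possible). Its sign rested on F16, without which the log2FC was -0.35.

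GPRC5A was lower in every KC L-RFI steer than in every KC H-RFI steer, in a contrast that chose it. The H-RFI steers F7, F1, F8 and F9 were at 19.7, 18.2, 14.1 and 12.6 CPM, a mean of 16.1 ± 3.35 CPM (SD, n = 4). The L-RFI steers F10, F16, F14 and F11 were at 9.20, 8.64, 4.15 and 2.53 CPM, a mean of 6.13 ± 3.30 CPM (SD, n = 4). The log2FC was -1.40 with a standard error of 0.36. Groups without overlap and lower in L-RFI were found for 5.6% of the 13725 genes tested in KC, and the quasi-likelihood test called 1 of them (0.00729%), while 2504 had an unadjusted p under 0.05 and DESeq2 called 173. F11, which had the lowest GPRC5A level in KC, also held the highest level of TTN, the giant sarcomere protein titin of striated muscle, at 2345 CPM. The study had listed TTN in KC as well, and a part of muscle in the GPRC5A values was not tested. Without F11 the log2FC of GPRC5A was -1.13 and that of PERP was 0.69.

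PERP and GPRC5A thus stood differently in the same 8 KC steers. F16 had the highest PERP level of the 22 steers and a GPRC5A level below every KC H-RFI steer, while F7 had the highest GPRC5A level in KC and the lowest PERP level of the KC H-RFI steers. The difference between the genes was not tested, because GPRC5A was chosen in this contrast.

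CHAR chose neither gene, and had 3 steers in each group, so that an exact permutation test could not give a p below 0.1. GPRC5A was at 33.5 CPM in F48, 19.9 in F43 and 9.79 in F36 of the H-RFI group, a mean of 21.1 ± 11.9 CPM (SD, n = 3). It was at 15.0 CPM in F46, 5.34 in F33 and 1.74 in F47 of the L-RFI group, a mean of 7.37 ± 6.87 CPM (SD, n = 3). In the L-RFI group F33 and F47 lay below all H-RFI steers and F46 lay above F36. The log2FC of -1.48 (95% interval -3.08 to 0.12) did not pass the quasi-likelihood test (FDR = 0.947) or the exact permutation test (2-sided p = 0.2). The quasi-likelihood test called 0 of 13737 genes (0%) in CHAR and gave 637 an unadjusted p under 0.05. DESeq2 called 22 there, the likelihood ratio test 21 and the exact test of edgeR 39. The log2FC of GPRC5A was -0.98 without F48 and -2.53 without F46.

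PERP was above 1 CPM of the total count in 2 of the 6 CHAR steers, 1 in each RFI group (F46, in L-RFI, was just above it on that scale and just below it after TMM normalization), and was therefore not part of the filtered fit. It was at 4.47 CPM in F48, 0.847 in F43 and 0.576 in F36 among the H-RFI steers, a mean of 1.97 ± 2.18 CPM (SD, n = 3). The L-RFI steers F46, F47 and F33 were at 0.956, 0.435 and 0.267 CPM, a mean of 0.553 ± 0.359 CPM (SD, n = 3). F48 stood apart with 41 reads, and the other 5 steers held 3 to 11 reads. An exact permutation test gave p = 0.3 (2-sided). Without the filter the log2FC was -1.77 (95% interval -3.68 to 0.14, FDR = 0.911 by the quasi-likelihood test). In F48 GPRC5A was also at its highest level in CHAR.

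**Figure D3:**
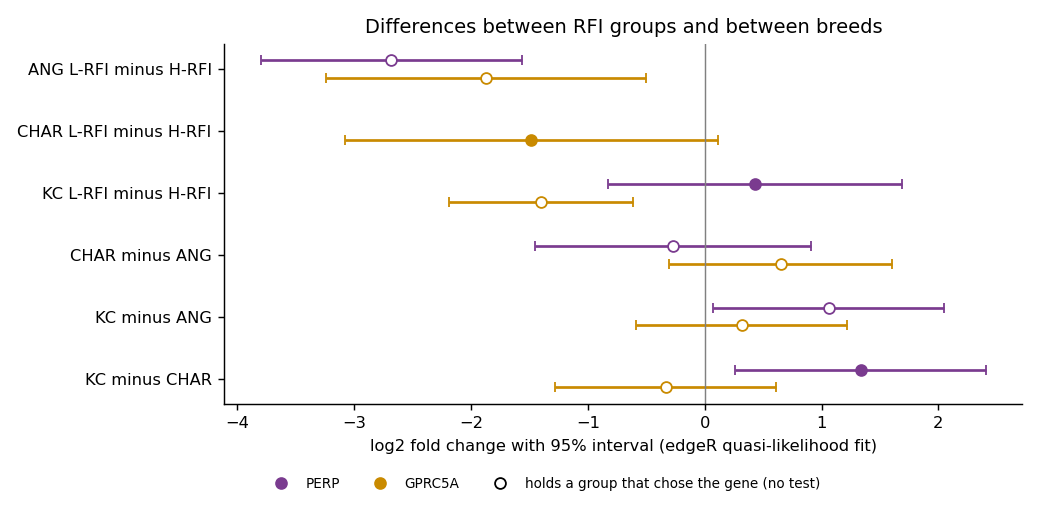
Log2 fold changes with 95% intervals from edgeR's quasi-likelihood fits for L-RFI against H-RFI in each breed and for the breed pairs, with PERP in purple and GPRC5A in orange. Open circles mark contrasts that hold a group whose level chose the gene and carry no test, PERP has no value in CHAR because it was below the filter, and none of the filled circles passed the FDR and fold limits.

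Ordered by mean, PERP was highest in ANG H-RFI (3.25 CPM), followed by KC L-RFI (3.102), KC H-RFI (2.26), CHAR H-RFI (1.97), CHAR L-RFI (0.553) and ANG L-RFI (0.481). GPRC5A was highest in CHAR H-RFI (21.1 CPM), followed by KC H-RFI (16.1), ANG H-RFI (15.2), CHAR L-RFI (7.37), KC L-RFI (6.13) and ANG L-RFI (4.12). The ranges of all neighbours in either order overlapped. For GPRC5A each H-RFI mean lay above each L-RFI mean, whereas for PERP the KC L-RFI mean lay above that of KC H-RFI. The directions of both genes in ANG, and of GPRC5A in KC, were fixed by the choice of the genes. This difference between the genes is therefore a description and no evidence that they behave differently. The L-RFI contrast of PERP in KC was then set against that in CHAR in 1 fit of all 22 steers, a comparison added after the values were seen. PERP passed the filter of that fit through KC and ANG, not through CHAR. The difference of log2FC was 2.20 (95% interval 0.07 to 4.33) and did not pass the quasi-likelihood test of edgeR over all genes (FDR = 0.726, unadjusted p = 0.0436). That test called 1 of 14048 genes (0.00712%), and 958 of them (6.82%) had an unadjusted p under 0.05. Because the contrast was picked for its values, neither the interval nor the p is read as support for a difference between the breeds.

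Breeds were compared by the mean of their H-RFI and L-RFI groups in the fit of all 22 steers. The low levels of ANG L-RFI steers, which chose both genes, and of KC L-RFI steers, which chose GPRC5A, enter these means. PERP in KC against CHAR was the 1 breed comparison free of them, and the others are described without a test. PERP was at 2.68 ± 1.97 CPM in KC (SD, n = 8), 1.87 ± 2.03 in ANG (SD, n = 8) and 1.26 ± 1.60 in CHAR (SD, n = 6). All 8 KC steers were above 1 CPM of the total count, against 4 of 8 ANG and 2 of 6 CHAR steers, but the ranges of the breeds overlapped.

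PERP entered the breed fits through KC, where 8 of 8 steers were above 1 CPM of the total count, and ANG. It did not pass the filter in CHAR (2 of 6 steers), so its entry rested on breeds other than CHAR. KC against CHAR gave a log2FC of PERP of 1.33 (standard error 0.52, 95% interval 0.26 to 2.41), which did not pass the threshold, with an FDR of 0.102 by edgeR's quasi-likelihood test, which called 1.8% of the 14048 genes. DESeq2 (FDR = 0.0602) and the likelihood ratio test (FDR = 0.0692) called it, among 292 and 295 of 14048 genes. It turned on F48, the CHAR H-RFI steer with 41 reads, without which the log2FC was 2.05 (FDR = 0.0154) and 370 of 14010 genes were called. PERP was also called without F10, F11 or F20, among 271 of 14021, 281 of 14028 and 252 of 14031 genes. The log2FC fell to 0.94 (95% interval -0.06 to 1.95, FDR = 0.219) without F16, the KC steer with the highest PERP level. Without the CHAR H-RFI steers F36 or F43 it was 1.11 (FDR = 0.205) and 1.16 (FDR = 0.210). Among L-RFI steers alone the log2FC was 2.43 (FDR = 0.191) and among H-RFI steers alone 0.23. Without the 6 libraries with few ambiguous reads, 3 of them from KC and none from CHAR, it was 1.63 (FDR = 0.151).

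In KC against ANG, where 0.42% of genes were called, the log2FC of PERP was 1.06 (95% interval 0.07 to 2.05). The sign differed by RFI group, with 2.62 among L-RFI steers and -0.50 among H-RFI steers. In CHAR against ANG, where 0.242% of genes were called, it was -0.27 (95% interval -1.45 to 0.91). Both pairs hold the ANG L-RFI steers, whose low level chose PERP, so no test is read from these intervals.

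GPRC5A was at 14.2 ± 11.5 CPM in CHAR (SD, n = 6), 11.1 ± 6.17 in KC (SD, n = 8) and 9.67 ± 10.99 in ANG (SD, n = 8), and the ranges overlapped widely. Its log2FC was 0.65 in CHAR against ANG (95% interval -0.31 to 1.61), 0.32 in KC against ANG (95% interval -0.59 to 1.22) and -0.33 in KC against CHAR (95% interval -1.28 to 0.61). No test is read from these intervals, because each pair holds a group whose low level chose GPRC5A.

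Whether the 2 genes moved together from steer to steer was examined on log2(CPM + 0.5). Over the 22 steers Pearson's r was 0.485 and Spearman's rho 0.425, which is a description, since both genes were chosen for low levels in the same ANG steers. Against PERP, 4.34% of 14047 other genes had an r as high as that of GPRC5A, and against GPRC5A 6.39% had an r as high as that of PERP. Of the steers, 6 were in the upper 11 for both genes, 6 in the lower 11 for both, and 10 were split. F48 was the only steer among the top 5 for both.

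After each value was centred on its group mean, r was 0.425 (permutation p = 0.0971) and rho 0.407 (p = 0.117), neither below 0.05, with adjusted values of 0.493 and 0.537 over 7 relations. A centred r as high was found for 8.36% of 14047 other genes against PERP and 8.0% against GPRC5A. Leaving out F48 and F16, the steers farthest from the median of PERP, gave r = 0.327 (permutation p = 0.262). Within breeds the centred r was 0.440 in ANG (n = 8, exact permutation p = 0.523), 0.649 in CHAR (n = 6, exact permutation p = 0.167) and 0.186 in KC (n = 8, exact permutation p = 0.752). The other 6 relations set each gene against RFIfat, total count and the share of ambiguous reads. Their centred r ran from -0.294 (GPRC5A with RFIfat, permutation p = 0.141) to 0.170 (PERP with ambiguous reads, permutation p = 0.471), and none passed.

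**Figure D4:**
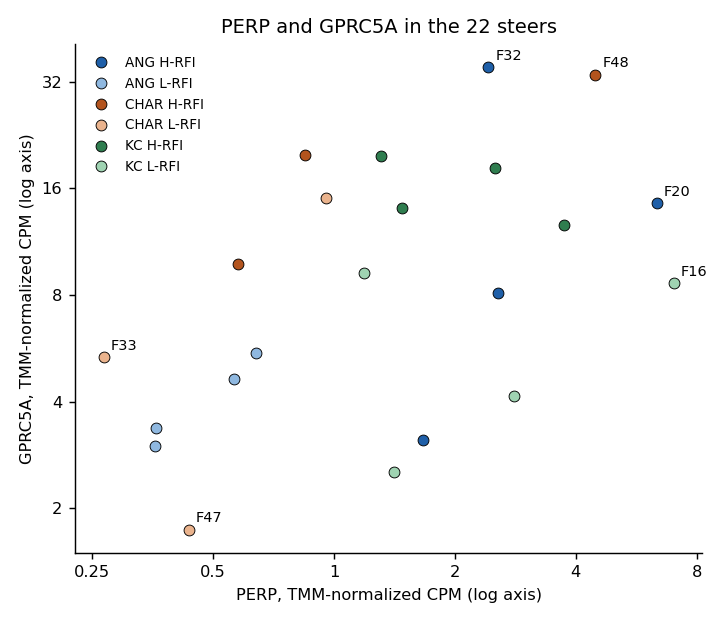
GPRC5A against PERP in TMM-normalized CPM (both axes log) for the 22 steers, coloured by breed and RFI group. F48 is high for both genes, while F16 and F20 are highest for PERP and F32 is highest for GPRC5A.

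Symbols were available for 241 other genes, all of which the study had listed as differing between RFI groups of these steers, so likeness of pattern within that set is no independent evidence. The 5 most like PERP by Pearson's r over the 22 steers were HAS2, ITGA11, WNT2, CFB and THBD, all listed in ANG. HAS2, a synthase of the matrix sugar hyaluronan, had r = 0.82 with PERP, the highest of all 14047 genes, and 0.73 after centring, which was place 31. ITGA11, a collagen receptor subunit, had 0.78 and 0.76 after centring, and WNT2, a secreted Wnt ligand, 0.78 and 0.69. CFB, complement factor B, had 0.77 and 0.60, and THBD, the thrombin receptor thrombomodulin, 0.76 and 0.57.

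HAS2 resembled PERP in its group levels. It was at 33.5 ± 13.7 CPM in ANG H-RFI and 15.6 ± 4.32 in ANG L-RFI steers (SD, n = 4 each), and at 43.8 ± 13.9 and 33.4 ± 14.9 CPM in KC H-RFI and L-RFI steers (SD, n = 4 in each group). In CHAR it was at 28.8 ± 17.2 and 15.8 ± 1.61 CPM (SD, n = 3 each). In contrast to PERP, its mean was lower in L-RFI than in H-RFI steers of all 3 breeds.

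The 5 most like GPRC5A were RFX2 (r = 0.84, 0.81 after centring), SYNJ2 (0.80 and 0.76), SDC4 (0.79 and 0.76), PHLDB3 (0.79 and 0.71) and GFPT2 (0.78 and 0.79). The study had listed RFX2, SYNJ2 and SDC4 in KC and PHLDB3 and GFPT2 in ANG, the contrasts that also chose GPRC5A. RFX2 is a transcription factor of ciliated cells, SYNJ2 a phosphoinositide phosphatase and SDC4 a heparan sulfate proteoglycan of the cell surface. GFPT2, which makes the first product of the hexosamine pathway, had its highest group mean in ANG H-RFI steers (307 ± 182 CPM, SD, n = 4) and its lowest in ANG L-RFI steers (111 ± 38.2 CPM, SD, n = 4).

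RFX2 had the highest r with GPRC5A of all 14047 genes, and was at place 5 after centring. It was at 53.9 ± 24.6 CPM in KC H-RFI and 16.6 ± 3.37 in KC L-RFI steers (SD, n = 4 each), at 47.4 ± 31.6 and 24.01 ± 9.67 CPM in ANG (SD, n = 4 each), and at 47.2 ± 32.5 and 19.9 ± 7.85 CPM in CHAR (SD, n = 3 each). Like GPRC5A, it had each H-RFI mean above each L-RFI mean, but the study had listed both genes in KC, so their shared direction there is not independent evidence. RFX2 was less like PERP, with r = 0.44, and so was SDC4, also with 0.44. GFPT2, however, had r = 0.70 with PERP, and HAS2 had 0.67 with GPRC5A, so likeness was not particular to PERP or GPRC5A for every gene named.

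**Figure D5:**
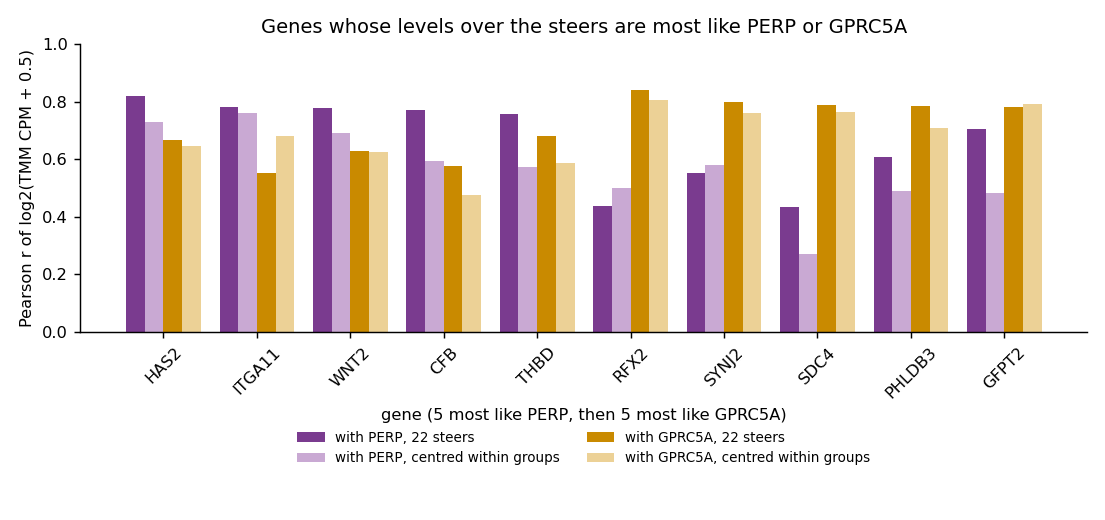
Pearson's r of log2(TMM CPM + 0.5) of 10 genes with PERP (purple) and with GPRC5A (orange), over the 22 steers (dark bars) and after centring within the 6 groups (light bars). The 5 genes on the left were picked for their r with PERP (0.76 to 0.82) and the 5 on the right for their r with GPRC5A (0.78 to 0.84).

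The genes around PERP and GPRC5A could be read only in small part, because identifiers were paired with symbols only for genes the study had listed. That covered 0 of 15 desmosome genes, 0 of 5 relatives of PERP in its family, 2 of 27 genes of the p53 family and its targets, 0 of 3 other GPRC5 receptors, 1 of 21 retinoid genes, 0 of 10 EGFR ligands and receptors and 1 of 19 immediate early genes. Of markers of cell types it covered 1 of 23 for epithelium, 0 of 10 keratins and 0 of 10 for adipocytes. The link of both genes to epithelium, and the adipocyte label of the tissue, could therefore not be checked against their markers here.

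OCLN, which encodes the tight junction protein occludin, was the only epithelial marker covered. Its mean was higher in L-RFI than in H-RFI steers of each breed, but its RFI groups overlapped in ANG and CHAR. It was at 5.63 ± 1.31 CPM in KC H-RFI and 12.2 ± 2.88 CPM in KC L-RFI steers (SD, n = 4 in each group). The study had listed both OCLN and GPRC5A in KC, so their opposite directions there are not independent evidence. In ANG OCLN was at 8.01 ± 2.67 and 10.4 ± 3.59 CPM (SD, n = 4 each), and in CHAR at 12.6 ± 4.20 and 14.2 ± 2.87 CPM (SD, n = 3 each). Its r over the 22 steers was -0.15 with PERP and -0.11 with GPRC5A, and after centring 0.30 and 0.39. The part of epithelial cells in the levels of PERP and GPRC5A was not tested.

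Of the p53 targets, AEN, an apoptosis-enhancing nuclease, had r = 0.66 with GPRC5A and 0.16 with PERP (0.48 and 0.01 after centring). SESN1, a stress-induced sestrin, had -0.44 and -0.25 (-0.24 and -0.28 after centring). Of the retinoid genes, CYP26B1, an enzyme that degrades retinoic acid, had r = 0.50 with GPRC5A and 0.13 with PERP (0.40 and -0.04 after centring). It was at 33.3 ± 19.2 CPM in KC H-RFI and 11.4 ± 3.26 CPM in KC L-RFI steers (SD, n = 4 each), with group means of 11.7 to 13.7 CPM in ANG and CHAR. FOSL1, a subunit of the AP-1 transcription factor, had r = 0.62 with GPRC5A and 0.38 with PERP (0.47 and 0.15 after centring). Its means of 0.275 CPM in ANG L-RFI and 0.125 CPM in CHAR L-RFI steers were at or below the level of 3 reads, so its r rests in part on imprecise values. AEN, SESN1, CYP26B1 and FOSL1 had all been listed by the study in KC, so their likeness to GPRC5A, listed in KC as well, is not independent evidence.

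Markers of other cell types were covered by few genes each. PROX1 and PDPN stood for lymphatic endothelium (2 of 4), ACTA2 for smooth muscle (1 of 5) and TTN for striated muscle (1 of 8). PDPN, podoplanin, was at 64.3 ± 24.4 CPM in ANG H-RFI and 27.9 ± 9.39 CPM in ANG L-RFI steers (SD, n = 4 each), moving with PERP there, while PROX1 was at 2.67 ± 1.31 and 2.86 ± 0.927 CPM (SD, n = 4 each). PDPN was one of the genes the study listed in ANG, and its part in the result for PERP was not tested.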

How the data were processed

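Total RNA with an integrity number above 7 was depleted of ribosomal RNA and sequenced by the authors from stranded libraries (paired reads of 100 bp). After trimming to a quality of 20 and a minimum length of 75 bp, they mapped reads to UMD3.1 with TopHat2 2.0.9 and counted reads per gene with HTSeq 0.6.1. They deposited raw counts, without normalization, for 22 steers. The annotation version and strand setting of the counting are not given in the sources used here. Symbols came from the study's list of DE genes (242 pairs). RefSeq (ARS-UCD2.0), used for names only, shows 0 genes overlapping PERP or GPRC5A. No coordinates or sequences are given.

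PERP, GPRC5A and the gene lists were chosen with earlier results of these data known. The filter kept genes above 1 CPM in 50% or more of a breed, which were fitted with edgeR 4.0.16 (TMM, quasi-likelihood test; R 4.3.3, limma 3.58.1), within each breed for RFI and over all 22 steers for breed pairs. Breed pairs that hold a group whose level chose the gene, planned as tests, are given without one. Calls needed a Benjamini-Hochberg FDR below 0.1 and an absolute log2FC of at least 1. Correlations used log2(CPM + 0.5) and 100000 permutations. Besides PERP and GPRC5A, the genes named were the 5 with a symbol and the highest r with each, and list members. PDPN, PROX1, ACTA2 and TTN were named as markers, and 1 further listed gene is not reported here. The fits were tested on simulated data with less spread between steers than PERP or GPRC5A showed, so that test does not cover genes as variable as these. Alternatives were RLE or total-count scaling, no filter, DESeq2 1.42.0, the likelihood ratio and exact tests of edgeR, a fit of all steers, an additive model, 1 RFI group only, a pseudocount of 1 and leaving out each steer. The labels name no sire, pen or library batch, so p-values measure the spread between these steers. Permutations were run with scipy 1.17.1 under python 3.11.15 (pandas 2.3.3, numpy 2.4.6), and figures drawn with matplotlib 3.10.9.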

Additional observations from a re-analysis of the deposited data

How the results depend on the processing

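Of 11 log2 fold changes of PERP and GPRC5A, 7 kept their direction under every alternative run. The other 4 did not. That of PERP in KC was -0.35 without F16, PERP in CHAR against ANG was 0.19 among L-RFI steers, PERP in KC against ANG was -0.50 among H-RFI steers, and GPRC5A in KC against CHAR was 0.19 without F46, and the cause was not tested. PERP in KC against CHAR was called by DESeq2 (1.34) and the likelihood ratio test (1.33), which called 292 and 295 of 14048 genes there.

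With each steer left out in turn, the log2 fold change of PERP was -2.86 to -2.57 in ANG (4 fits without an L-RFI steer, since PERP fell below the filter without any H-RFI steer), -0.35 to 0.80 in KC, -0.99 to -0.0067 in CHAR against ANG, 0.67 to 1.33 in KC against ANG and 0.94 to 2.05 in KC against CHAR. That of GPRC5A was -2.21 to -1.03 in ANG, -2.53 to -0.98 in CHAR, -1.66 to -1.13 in KC, 0.13 to 1.07 in CHAR against ANG, 0.15 to 0.74 in KC against ANG and -0.56 to 0.19 in KC against CHAR. The centred r of PERP with GPRC5A was 0.343 to 0.548, with a permutation p under 0.05 without F10 (0.536, p = 0.0385) or F32 (0.548, p = 0.0394).

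The number of genes called over the whole table moved with the tool and with the steers used. DESeq2, the likelihood ratio test and the exact test of edgeR called 32, 31 and 46 in ANG. They called 22, 21 and 39 in CHAR and, within KC, 173, 189 and 177. The fit of all steers called 1 in CHAR and 111 in KC, and total-count scaling 0 in KC. For breed pairs DESeq2 and the likelihood ratio test called 96 and 94 in CHAR against ANG and 91 and 97 in KC against ANG, against 34 and 59 in the main analysis. H-RFI steers alone gave 0 and 0 there, L-RFI steers alone 5 and 1, and L-RFI steers alone 30 in KC against CHAR in place of 253. Without the 6 libraries with few ambiguous reads, chosen after the data were seen, 0 were called in KC, 4 in CHAR against ANG, 1 in KC against ANG and 167 in KC against CHAR, and the log2 fold changes of PERP and GPRC5A in ANG were -3.20 and -2.47. With 1 steer left out the ranges were 0 to 1 in ANG and CHAR, 0 to 54 in KC, 0 to 67 in CHAR against ANG, 24 to 127 in KC against ANG and 176 to 370 in KC against CHAR. Total-count scaling turned 6 higher of 34 called in CHAR against ANG into 20 of 50, and 36 of 59 in KC against ANG into 54 of 69.

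No paired analysis was possible because the labels give every steer its own number. PERP at 3 to 60 reads is limited by depth, so that a difference of less than its counting interval could not be seen in a single steer.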
